A study of Mus musculus with 10 samples.

Results

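The clock output genes and the Rev-erb receptors were followed in 5 tissues of aged mice fed LB81 yogurt or a control diet. The 8 genes were Dbp, Tef, Hlf, Nfil3, Nr1d1, Nr1d2, Ciart and Usp2, and every probe set of the array whose single gene symbol was among these 8 was used. This gave 14 probe sets, out of 34958 probe sets with a single symbol (18194 genes) and 45101 in all. The mice were ICR males, an outbred strain, housed 1 to a cage under specific-pathogen-free conditions. The yogurt group received the AIN-93 diet with 1 to 2% LB81 yogurt, and the control group received AIN-93 alone, in both cases from 8 months of age until collection at 28 months. Jejunum, ileum, distal colon, liver and spleen were taken, and for each tissue RNA of 10 yogurt-fed mice was combined into a single pool and RNA of 9 control mice into another, and each pool was read on 1 Affymetrix array. There was therefore no replicate of diet within a tissue, and the spread between mice was not measured. The sources used here give neither the hour of collection nor the feeding state.

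The circadian clock of mammalian cells is a transcriptional loop in which CLOCK and BMAL1 (encoded by Clock and Arntl) activate genes through E-boxes, and PER and CRY proteins, whose genes are among those targets, inhibit them. The Rev-erb receptors form a second loop that represses Arntl, and the PAR bZIP factors DBP, TEF and HLF carry the rhythm to genes with D-boxes, which the repressor NFIL3 also binds. In mouse liver and gut these transcripts vary strongly over the day, and the PAR bZIP factors are known regulators of detoxification genes.

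The promoters of all 8 genes were in the RefSeq promoter table (GRCm38.p6), which gave 9 windows, since that table lists 2 starts for Tef. The 250 bases before each start were searched on both strands for the E-box CACGTG, the E-box variant CACGTT, the D-boxes TTATGTAA and TTACGTAA, and the Rev-erb core motif AGGTCA. These motifs did not overlap one another in the windows shown. Among the 32851 windows of the same length in the table, 6.02% held CACGTG, 3.85% held CACGTT, 0.931% held a D-box and 14% held AGGTCA. The windows below are those of the genes with E-box letters, and that of Dbp, which has none there and whose ratio was, with Ciart's, among the lowest. Capitals mark a match to CACGTG or CACGTT on either strand.
Ciart promoter, chr3:95882229-95882478, minus strand: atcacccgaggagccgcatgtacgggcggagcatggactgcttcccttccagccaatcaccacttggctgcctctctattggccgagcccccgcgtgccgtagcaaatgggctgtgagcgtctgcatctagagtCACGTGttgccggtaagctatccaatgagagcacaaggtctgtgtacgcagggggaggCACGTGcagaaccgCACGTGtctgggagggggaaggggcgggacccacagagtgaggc
Tef promoter at its upstream start, chr15:81802423-81802672, plus strand: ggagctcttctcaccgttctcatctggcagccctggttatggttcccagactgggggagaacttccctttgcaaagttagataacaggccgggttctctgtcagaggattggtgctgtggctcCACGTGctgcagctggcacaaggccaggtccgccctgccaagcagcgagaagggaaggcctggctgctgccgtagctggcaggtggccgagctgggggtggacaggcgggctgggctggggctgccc
Tef promoter at its downstream start, chr15:81811164-81811413, plus strand: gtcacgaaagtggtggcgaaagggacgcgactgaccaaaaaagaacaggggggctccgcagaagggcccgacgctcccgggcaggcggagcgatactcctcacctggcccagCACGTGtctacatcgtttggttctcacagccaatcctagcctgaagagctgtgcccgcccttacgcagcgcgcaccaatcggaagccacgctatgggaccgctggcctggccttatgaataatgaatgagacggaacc
Nr1d1 promoter, chr11:98775378-98775627, minus strand: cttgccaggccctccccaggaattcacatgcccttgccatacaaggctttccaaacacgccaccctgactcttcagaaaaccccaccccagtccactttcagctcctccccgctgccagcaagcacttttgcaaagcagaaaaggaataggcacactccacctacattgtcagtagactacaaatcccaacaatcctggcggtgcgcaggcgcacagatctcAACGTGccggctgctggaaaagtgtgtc
Dbp promoter, chr7:45704997-45705246, plus strand: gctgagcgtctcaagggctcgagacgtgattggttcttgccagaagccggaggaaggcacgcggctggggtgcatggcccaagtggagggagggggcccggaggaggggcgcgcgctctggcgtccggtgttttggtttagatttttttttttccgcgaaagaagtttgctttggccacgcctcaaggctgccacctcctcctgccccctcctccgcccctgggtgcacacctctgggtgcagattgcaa
Ciart held 3 E-boxes, beginning 116, 58 and 44 bases before the start, and only 0.0609% of all windows (20 windows) held 3 or more. Each Tef window held 1 E-box, at 127 and at 138 bases before its start. The Nr1d1 window held CACGTT at 28 bases. Nr1d2 and Nfil3, not shown, each held 1 AGGTCA, at 77 and at 12 bases. No match to any of these letters lay in the windows of Dbp, Usp2 and Hlf, and no D-box lay in any of the 9. The Usp2 window (44084670 to 44084919) and the Nfil3 window (52981040 to 52981289) lay inside the annotated spans of these genes. For Usp2 and Nfil3 the bases before the outer end of the span were not searched. The Dbp window begins before the gene's annotated span and ends within it.

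Values are log2 expression levels as the authors deposited them. A probe set was counted as above the floor on an array where it exceeded the array's median (5.42 to 5.5), and lower values were raised to the floor before a ratio was taken. Each gene is given by the probe set of highest mean level on the 10 arrays, and counts as measured in a tissue when 1 or both arrays of that tissue exceeded the floor. Levels of different genes come from different probes and are not compared. All 8 genes were above the floor on most arrays: Dbp, Tef, Hlf, Nr1d1 and Nr1d2 on 10 of 10, Nfil3 and Usp2 on 9, and Ciart on 8.

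**Figure D1:**
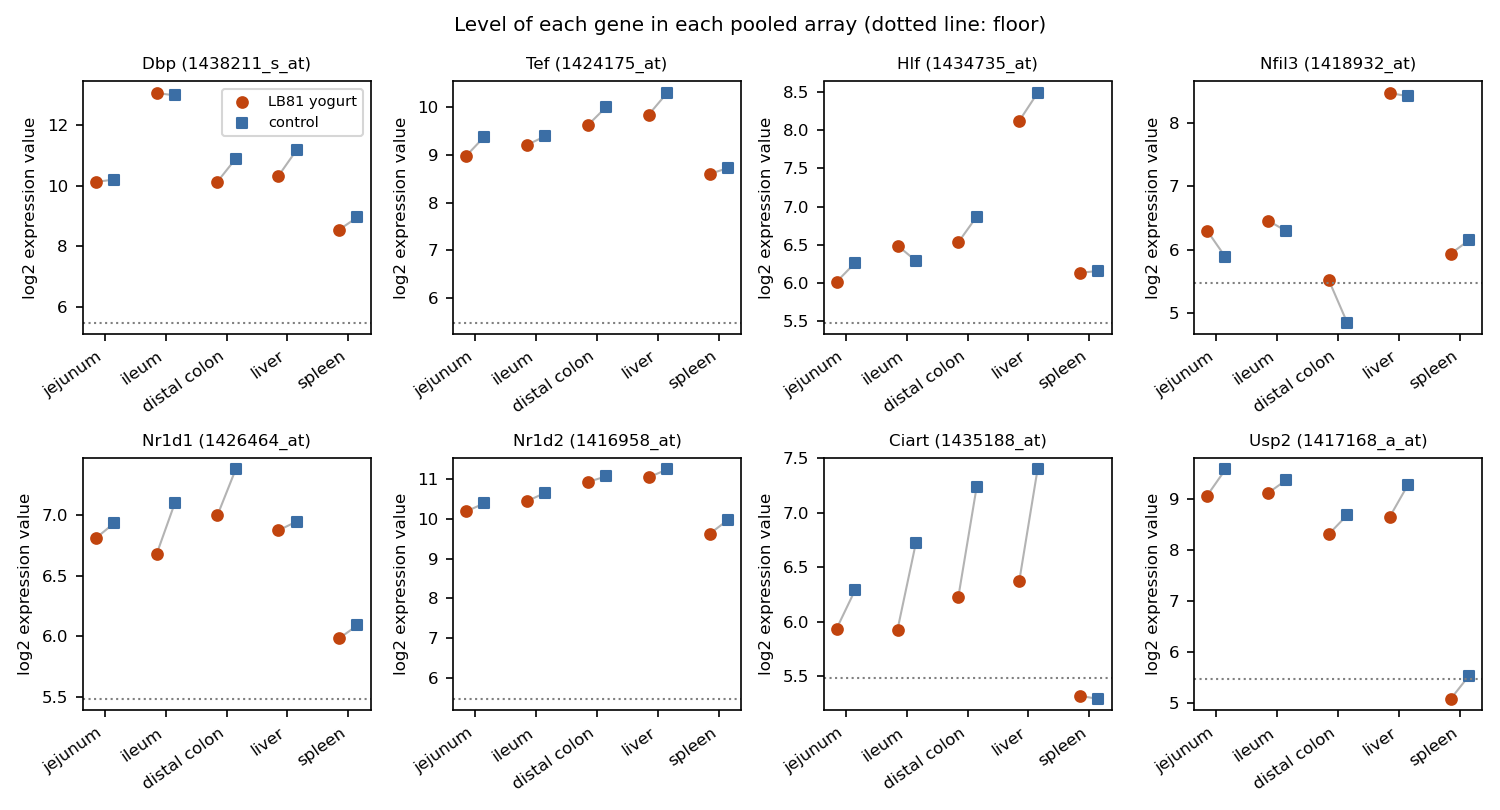
Log2 expression level of each of the 8 genes on each pooled array, with LB81 yogurt (circles) left of control (squares) in each of the 5 tissues. Lines join the 2 arrays of a tissue and the dotted line is the floor. Ciart and Tef are lower on the yogurt array in every tissue where both arrays exceed the floor, and Dbp, by its brighter probe set, stands far higher in ileum than elsewhere on both diets.

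The PAR bZIP factors were mostly lower in the yogurt pools. Tef (chromosome 15, 81802673 to 81826863 in GRCm38.p6), a PAR bZIP activator, was at 8.98, 9.21, 9.63, 9.85 and 8.60 in yogurt-fed mice (jejunum, ileum, distal colon, liver, spleen, the order kept below), and at 9.39, 9.40, 10.01, 10.31 and 8.73 in controls. The yogurt array was the lower one in all 5 tissues, by ratios between −0.45 in liver and −0.13 in spleen. Its 2 other probe sets were above the floor on 4 and 5 arrays, with diet terms of −0.03 and −0.08. In spleen the first of them was 0.05 higher with yogurt, and the second was below the floor on both arrays. Hlf (chromosome 11, 90336535 to 90390917), the hepatic leukemia factor of the same family, was at 6.01, 6.49, 6.53, 8.12 and 6.13 in the yogurt pools and at 6.26, 6.29, 6.87, 8.49 and 6.16 in the control pools. Hlf was thus lower with yogurt in 4 tissues, with ratios of −0.24 in jejunum, −0.33 in distal colon, −0.36 in liver and −0.03 in spleen, and higher in ileum by 0.20. Its other probe set gave −0.24, 0.07, −0.42 and −0.34 in jejunum, ileum, distal colon and liver.

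Dbp (chromosome 7, 45705100 to 45710203), the albumin D-site binding protein and the PAR bZIP gene with the strongest daily rhythm, was read by 2 probe sets that differed. The brighter one was at 10.13, 13.07, 10.13, 10.32 and 8.55 in yogurt-fed mice, against 10.21, 12.99, 10.89, 11.18 and 8.96 in controls. By this probe set Dbp was lower with yogurt by 0.76 in distal colon (1.69-fold), by 0.86 in liver (1.81-fold) and by 0.41 in spleen (1.33-fold), while the ratios in jejunum (−0.08) and ileum (0.08) were small. The dimmer one was at 7.45, 7.79, 8.04, 8.20 and 5.73 in the yogurt pools, against 8.34, 8.22, 8.96, 8.96 and 6.41 in the control pools. It was lower with yogurt in all 5 tissues, with ratios of −0.89, −0.43, −0.92, −0.76 and −0.68. The probe sets gave similar ratios in distal colon and liver and different ones in jejunum and ileum.

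The 2 probe sets also differed in the ileum's level. In a limma fit of all single-symbol probe sets, chosen after seeing the data, the ileum was 4.85-fold above the liver by the brighter one (log2 difference 2.28, adjusted p = 3.56e-05), whereas by the dimmer one the difference was −0.58 (adjusted p = 0.00331). Sphk2 is a sphingosine kinase gene whose annotated span (45709463 to 45718002) overlaps the end of Dbp. By the one of its 2 probe sets with the highest mean level, Sphk2 was at 7.99 in the yogurt ileum and 8.08 in the control ileum. In jejunum it was at 8.36 and 8.67. Its diet ratios ran from −0.30 to −0.03. The source of the ileal signal of the brighter probe set was not tested, and results on Dbp are given by both probe sets.

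**Figure D2:**
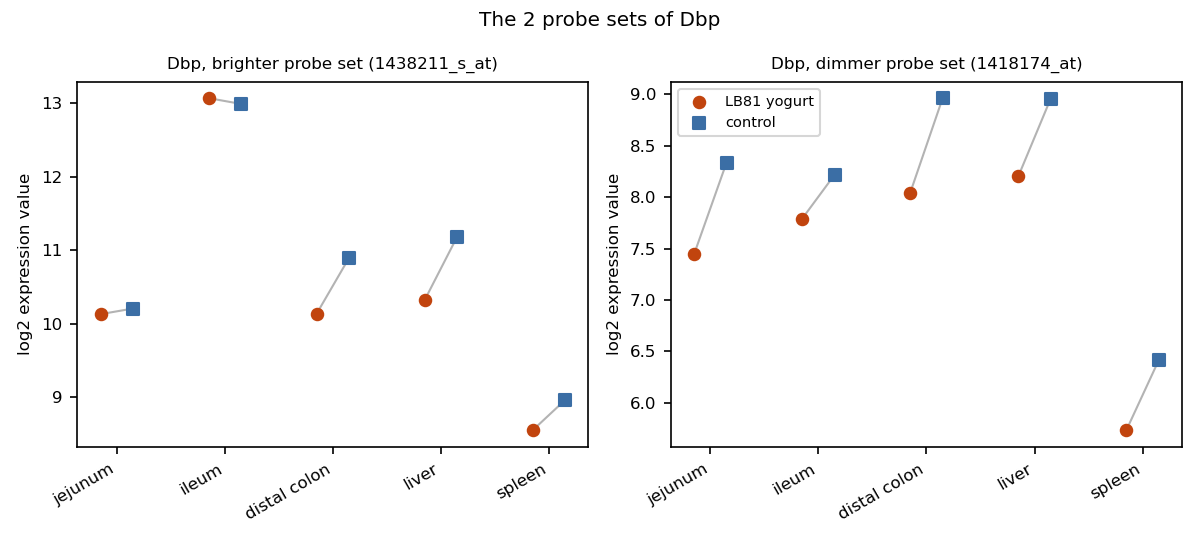
Log2 expression level of the 2 probe sets of Dbp on the 10 arrays, with LB81 yogurt left of control in each tissue. By the dimmer probe set the yogurt array is lower in all 5 tissues, and by the brighter one the ileum reads 13.07 with yogurt and 12.99 in control, with almost no diet difference there or in jejunum.

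Nfil3 (chromosome 13, 52967209 to 52982878), the repressor that shares D-boxes with the PAR bZIP factors, had a higher yogurt level in 4 tissues. It was at 6.30, 6.46, 5.52, 8.47 and 5.94 in the yogurt pools and at 5.89, 6.29, 4.86, 8.41 and 6.15 in the control pools. The yogurt array was higher in jejunum by 0.41, in ileum by 0.17 and in liver by 0.05, and lower in spleen (−0.21). In distal colon the control array was below the floor, so the yogurt array was higher by at least 0.03, and by 0.66 between the deposited values.

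Both Rev-erb receptors were lower with yogurt in all 5 tissues, by small amounts. Nr1d1 (chromosome 11, 98767932 to 98775377), which encodes REV-ERB alpha, was at 6.81, 6.68, 7.0, 6.88 and 5.98 in yogurt-fed mice and at 6.93, 7.10, 7.38, 6.95 and 6.09 in controls. Its ratios were lowest in ileum (−0.42) and distal colon (−0.38), and lay between −0.12 and −0.07 in the other tissues. Thra, a thyroid hormone receptor gene whose span overlaps the end of Nr1d1, had ratios from −0.09 to 0.06. Nr1d2 (chromosome 14, 18204056 to 18239106), which encodes REV-ERB beta, was at 10.18, 10.43, 10.92, 11.03 and 9.62 with yogurt and at 10.38, 10.65, 11.06, 11.23 and 9.97 in control. Its ratios were the most even of the 8 genes, from −0.35 in spleen to −0.14 in distal colon. The second probe set of Nr1d2 was above the floor on 0 arrays.

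Ciart, also called Chrono (chromosome 3, 95878500 to 95882257), a repressor of CLOCK and BMAL1, had the lowest ratios of the 8 genes in 3 tissues. It was at 5.94, 5.93, 6.23 and 6.37 in jejunum, ileum, distal colon and liver of yogurt-fed mice, against 6.29, 6.72, 7.24 and 7.40 in controls. The yogurt level was 1.27-fold lower in jejunum, 1.73-fold in ileum, 2.01-fold in distal colon and 2.04-fold in liver, which are log2 ratios of −0.35, −0.79, −1.01 and −1.03. Across these 4 tissues the highest yogurt level (6.37) exceeded only the jejunal control level. Both spleen arrays were below the floor, at 5.32 with yogurt and 5.29 in control, so spleen gave no ratio. The E-box-rich promoter shown above belongs to this gene.

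Usp2 (chromosome 9, 44067021 to 44095627), a rhythmic deubiquitinase, was at 9.07, 9.12, 8.32, 8.66 and 5.09 with yogurt and at 9.58, 9.38, 8.69, 9.29 and 5.54 in control. It was lower with yogurt by 0.51 in jejunum (1.43-fold), 0.26 in ileum, 0.37 in distal colon and 0.63 in liver (1.55-fold). In spleen the yogurt array was below the floor, which bounds the decrease at 0.04 or more. Its other probe set gave −0.47, −0.22, −0.43 and −0.49 in the same 4 tissues, but 0.34 in spleen.

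Against the whole array, the 8 genes lay towards the lower side. In distal colon 7 of 8 were lower with yogurt, against 54.6% of measured genes, and 2 (Ciart and Dbp) were at least 1.5-fold lower, against 0.089% (11 of 12362 genes). In liver 7 of 8 were lower, against 57.8%, and 3 (Ciart, Dbp and Usp2) were at least 1.5-fold lower, against 0.337%. Usp2 was short of 1.5-fold in liver after quantile normalization (−0.57) and with its probe sets averaged (−0.56). In ileum the counts were 5 of 8, against 62.1%, and 1 (Ciart) against 0.293%, so the share that was lower by any amount was near that of all genes. In jejunum 7 of 8 were lower, against 53.5%, with 0 at 1.5-fold, against 0.244%. In spleen 7 of the 7 measured were lower, against 61.5%, with 0 at 1.5-fold, against 1.09%. When ratios were centred on each tissue's median over all genes, 5 of 7 were lower in spleen. Hlf (0.02) and Usp2 (0.004) were then slightly higher. Read by its dimmer probe set, Dbp was also at least 1.5-fold lower in jejunum and spleen, which makes 1 member in each. The median ratios of the 8 genes, in the tissue order used above, were −0.22, −0.20, −0.38, −0.41 and −0.13, beside −0.01, −0.04, −0.01, −0.03 and −0.05 over all measured genes.

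Some members held extreme ranks. Counted from the lowest ratio, Ciart was at rank 2 and Dbp at rank 6 of 12362 genes in distal colon. In liver Ciart was at rank 6, Dbp at rank 12 and Usp2 at rank 31 of 12161. Ciart was at rank 16 of 12295 in ileum, and Usp2 at rank 59 of 12272 in jejunum. Other members lay towards the opposite end, with Nfil3 at rank 12104 in jejunum and Hlf at rank 11589 in ileum. In ileum Dbp by its brighter probe set was at rank 9953. In spleen the ranks ran from 476 (Dbp) to 6596 (Hlf) of 11875. These ranks describe single pairs of pools and have no test.

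**Figure D3:**
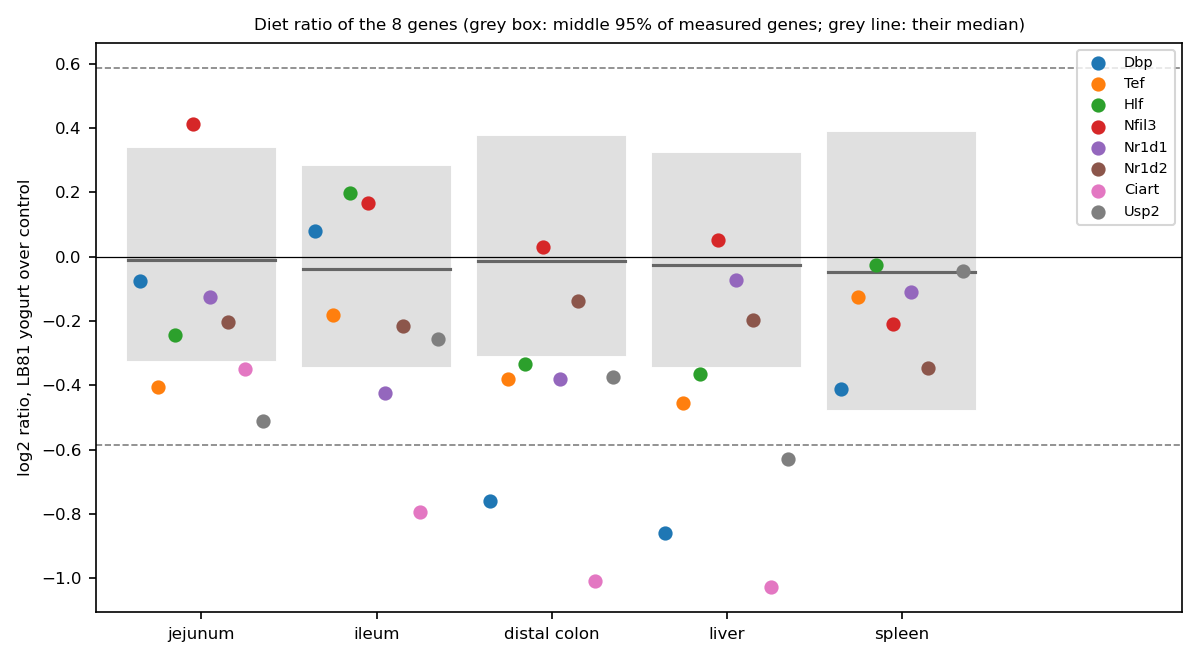
Log2 ratio of LB81 yogurt over control for each of the 8 genes (coloured points) in the 5 tissues. Grey boxes span the middle 95% of measured genes, grey lines their median and dashed lines a 1.5-fold difference. Ciart and Dbp lie furthest below the boxes in distal colon and liver, while Nfil3 lies above its box in jejunum.

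Over the 5 tissues together, no gene passed the test of diet. A limma model with terms for tissue and diet was fitted to the 13599 genes above the floor on at least 2 arrays, with 4 residual degrees of freedom, and 0 genes had an adjusted p under 0.05 (0%), the 8 genes included. The p measures how evenly the ratio held over tissues of the same 2 groups of mice. Unadjusted p was under 0.05 with a lower yogurt level for 6 of the 8 genes, against 8.33% of all genes tested (1133 genes, and 10.6% counting both directions). Tef and Nr1d2, lower in all 5 tissues, had the smallest unadjusted p with Dbp read by its brighter probe set: the diet term of Tef was −0.31 ± 0.0558 (SE, limma adjusted p = 0.248) and that of Nr1d2 was −0.22 ± 0.0353 (adjusted p = 0.217). In that fit Ciart had the lowest term of the 8, at −0.63 ± 0.153 (adjusted p = 0.338), with both spleen values set at the floor. The term of Usp2 was −0.36 ± 0.0825 (adjusted p = 0.318) and that of Nr1d1 was −0.22 ± 0.0690 (adjusted p = 0.392). In the fit of all single-symbol probe sets, the other probe set of Usp2 had a term of −0.26 ± 0.121. Its limma p there was 0.0683 unadjusted and 0.544 adjusted.

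Dbp had a term of −0.41 ± 0.136 by its brighter probe set (limma adjusted p = 0.418) and of −0.73 ± 0.0764 by its dimmer one in the fit of all single-symbol probe sets (adjusted p = 0.106), which is below the term of Ciart. Hlf (−0.15, adjusted p = 0.570) and Nfil3 (0.09, adjusted p = 0.714) also did not pass. An exact two-sided permutation over the 32 swaps of diet within tissues cannot go below p = 0.0625. Tef, Nr1d1, Nr1d2, Usp2 and Dbp by its dimmer probe set reached that value. The permutation gave 0.1875 for Hlf and for Dbp by its brighter probe set, and 0.125 for Ciart. Both spleen values of Ciart were at the floor, so its spleen ratio in the permutation (0.02) was only the difference between 2 array floors. Ciart was lower in all 4 tissues where it was measured, so its 0.125 is not comparable with the other values. Tef, Nr1d1, Nr1d2 and Usp2 were also lower in all 5 tissues, as were 11.3% of the 10384 genes measured in all 5. That holds for the probe set of highest mean level. The other probe set of Usp2, above the floor on all 10 arrays, was 0.34 higher with yogurt in spleen. A further limma term asked whether the diet ratio in liver and spleen differed from that in the 3 gut segments, and none of the 8 genes passed (0% of all genes, adjusted p from 0.535 to 0.934), while 0 of the 8 had an unadjusted p under 0.05, against 10.7% of all genes. The differences seen between tissues in the ratios of single genes are therefore descriptions.

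**Figure D4:**
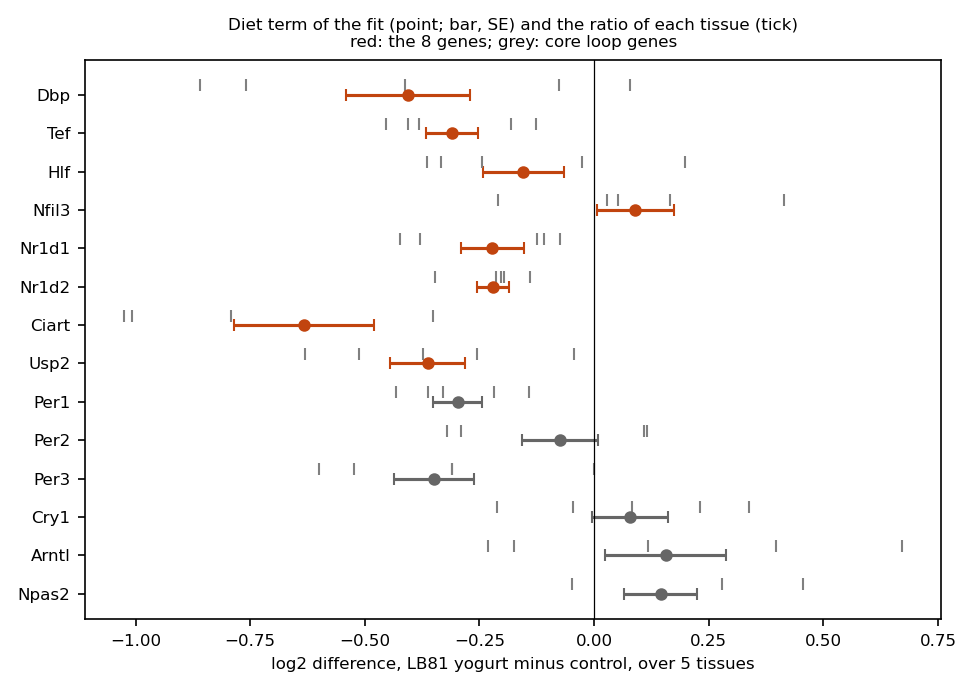
Diet term of the limma fit over 5 tissues (log2, LB81 yogurt minus control) for the 8 genes (red) and 6 core loop genes (grey). Points are the terms, bars their SE and ticks the ratios of single tissues. Dbp is shown by its brighter probe set. Ciart (−0.63) and Dbp (−0.41) have the lowest terms plotted, Nfil3 and Arntl lie above 0, and no term passes the adjusted test.

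The other genes of the loop gave ratios of both signs. Per1, a clock repressor that E-boxes drive, had ratios of −0.33, −0.14, −0.43, −0.36 and −0.22 (diet term −0.30, limma adjusted p = 0.248). Per3, a paralogue, had −0.52, −0.31, −0.31 and −0.60 in the first 4 of these tissues and no difference in spleen (term −0.35, adjusted p = 0.338). Per2 was at −0.29 and −0.32 in jejunum and liver, but at 0.11 and 0.12 in ileum and distal colon. Arntl, which Rev-erb receptors repress, had ratios of 0.12, −0.17, 0.40, 0.67 and −0.23 (term 0.16, limma adjusted p = 0.691). Its ratios were highest in distal colon and liver, where those of Ciart and of Dbp by its brighter probe set were lowest. By the dimmer probe set, the ratios of Dbp were lowest in distal colon (−0.92) and jejunum (−0.89). Npas2, a CLOCK paralogue and another Rev-erb target, had ratios of 0.45, −0.05 and 0.28 in the gut segments and was not measured in liver and spleen. Cry1 ranged from −0.21 to 0.34.

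Counted by list, no gene of any clock list passed the adjusted test in either direction. Of all genes tested, 62.2% had a lower yogurt level by the diet term and 8.33% were lower at an unadjusted p under 0.05, the shares against which the list counts are set. Of 7 core clock repressors tested, 5 were lower and 4 had an unadjusted p under 0.05, with a median diet term of −0.21, beside −0.02 for all genes tested. Of 5 core activators, 4 were higher and 0 had an unadjusted p under 0.05 (median 0.02). Of 6 clock kinases and turnover factors, 5 were lower, again with 0 (median −0.06). Of 9 other clock-controlled genes, 8 were lower and 4 had an unadjusted p under 0.05 (median −0.10). Among them was Cirbp, a cold-inducible RNA-binding protein gene, with ratios of −0.43, −0.66, −0.72, −0.69 and −1.16 (diet term −0.73 ± 0.0931, limma adjusted p = 0.119). With Dbp read by its brighter probe set, Cirbp was the one gene of these lists, beside Ciart among the 8, at least 1.5-fold lower in 3 or more tissues. Read by its dimmer probe set, Dbp also met that criterion, in jejunum, distal colon, liver and spleen. By that criterion 0.0289% of the 10384 genes measured in all tissues (3 genes) were lower, a count that leaves out Ciart, which was not measured in spleen.

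Further lists held genes that the PAR bZIP factors and the Rev-erb receptors are reported to control in mouse. Of 12 reported PAR bZIP targets tested, 9 were lower and 3 higher, with 1 at an unadjusted p under 0.05 in each direction (median −0.05). Of 12 reported Rev-erb targets outside the 8 genes, 4 were lower and 8 higher, with 0 under 0.05 (median 0.01). By tissue, and counting Nfil3, the measured Rev-erb targets were higher with yogurt in 8 of 8 cases in distal colon (median ratio 0.25) and 8 of 10 in jejunum (0.26), and lower in 7 of 8 in spleen (−0.22) and 7 of 10 in ileum (−0.06), with 8 of 12 higher in liver (0.06). The measured PAR bZIP targets were lower in 7 of 8 cases in jejunum (median −0.21) and 9 of 11 in liver (−0.12), and higher in 6 of 9 in distal colon (0.09). These list counts within a tissue have no test. Of 11 glucocorticoid-responsive genes, a list set beside the clock genes because Per1 answers to the hormone, 9 were lower, 2 of them with an unadjusted p under 0.05 (median −0.07). Per1 is itself on this list and among those 2, and is also counted with the core repressors. Tsc22d3 is also on the list of other clock-controlled genes, so these counts are not independent.

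Within the whole array, Usp2 and Tef were nearest to clock genes by their diet ratios. By the distance between their 5 diet ratios among 10384 genes, the gene nearest to Usp2 was Per3 (0.0997), followed by Tef (0.234) and Srsf5 (0.383). The nearest to Tef were Per1 (0.164), Usp2 (0.234) and Srsf5 (0.252). The other members had no clock gene among their nearest 3 except that Cirbp was the third of Dbp's dimmer probe set, at 0.731. Those nearest to Ciart were Ap2b1 (0.781), Zc3h7b (0.899) and Igsf23 (0.917), farther away than for the other 7 genes, with Ciart's spleen ratio taken between floors. Those nearest to Dbp by its brighter probe set were Inpp4a, Fbxo31 and Mzb1 (0.559 to 0.651), and to Nr1d2 they were Atraid, Bcap29 and Glb1 (0.0846 to 0.101). The nearest to Hlf were Plin4, Cmtm8 and Csad (0.169 to 0.209), to Nfil3 Pcolce, Ccdc69 and Mfhas1 (0.126 to 0.151), and to Nr1d1 Tatdn2, 3110082I17Rik and Zbtb11os1 (0.119 to 0.194). Pearson r of the levels was taken over the 10 arrays, which come as 2 arrays per tissue and so mostly share the tissue pattern. By this measure Tef was most like Cry2, Nr1d2 and Ap1g1 (r = 0.973 for each). Ciart had Tef among its nearest 3 (r = 0.920). The nearest 3 of the other members held no clock gene. Dbp was closest to Aspa by its brighter probe set (0.968) and to Arl16 by its dimmer one (0.978). Hlf was closest to Lin7a (0.991), Nfil3 to Mmd (0.989) and Nr1d1 to Smim20 (0.974). Nr1d2 was closest to Plk2 (0.989) and Usp2 to Fahd1 (0.995).

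In level, the tissues ordered the genes differently. Tissue pairs were compared with limma over both diets and called at an adjusted p under 0.05 and at least 2-fold, with the 2 arrays of a tissue, pools of different mice, standing in for replicates. Over the 10 pairs and 8 genes, 26 of 80 comparisons were called, against 22.8% over all genes, which is near that background. The largest counts were for spleen against liver and against distal colon. All but Nr1d1, 7 of the 8 genes, were at least 2-fold higher in liver than in spleen, against 33.2% of genes called either way. Between distal colon and spleen 6 of 8 differed, against 28.5%. In the other pairs the counts were 1 of 8 for jejunum and ileum (4.94% of genes), 0 for jejunum and distal colon (12.2%), 2 for jejunum and liver (26%), 2 for jejunum and spleen (28.4%), 1 for ileum and distal colon (8.87%), 3 for ileum and liver (27.4%), 2 for ileum and spleen (29.6%) and 2 for distal colon and liver (28.5%).

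Hlf and Nfil3 were highest in liver. Hlf was 3.04-fold higher in liver than in distal colon, the next tissue (adjusted p = 1.65e-05), and its order below the liver, distal colon, ileum, spleen and jejunum, held no neighbours 2-fold apart. Nfil3 was 4.18-fold higher in liver than in ileum, followed by jejunum, spleen and distal colon. Tef and Nr1d2 shared an order of liver, distal colon, ileum, jejunum and spleen in which no neighbours were 2-fold apart, the liver being 2.66-fold above the spleen for Tef and 2.53-fold for Nr1d2. Ciart had the same order, with spleen at the floor and the liver at least 2.63-fold above it. Nr1d1 ran from distal colon through liver, ileum and jejunum to spleen, with no neighbours 2-fold apart and the jejunum 1.78-fold above the spleen.

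Usp2 was highest in jejunum, then ileum, liver and distal colon, which were less than 2-fold apart from one neighbour to the next, and the distal colon was at least 7.92-fold above the spleen, where the yogurt array was at the floor. Its other probe set, above the floor on all 10 arrays, placed liver above ileum and the distal colon only 2.50-fold above the spleen. Dbp by its brighter probe set ran from ileum through liver, distal colon and jejunum to spleen, with the jejunum 2.66-fold above the spleen. By the dimmer one its order was liver, distal colon, ileum, jejunum and spleen, as for Tef and Nr1d2, with the jejunum 3.52-fold above the spleen.

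Markers of each tissue were measured in it: all 7 hepatocyte markers in liver, all 7 colonocyte markers in distal colon, all 5 ileal markers in ileum, 6 enterocyte markers in jejunum and 6 B cell and red pulp markers in spleen. Presence alone does not set the tissues apart, since the same 6 B cell and red pulp markers were also measured in liver. The summed linear level of each of these lists was highest in the tissue named, on both diets. For the B cell and red pulp markers it was 16009 in control spleen and 2834 in control liver. In these bulk samples fewer cells of a type and less RNA per cell cannot be told apart, and several marker lists differed between the diets. In distal colon all 8 smooth muscle markers were lower with yogurt (summed linear level 25516 with yogurt and 29766 in control) and all 5 measured adipocyte markers were higher (4555 and 1944, Cidec and Lep at the floor), as were all 3 measured enterocyte markers (3596 and 2456, with Lct, Apoa4 and Anpep at the floor) and all 4 measured ileal markers (702 and 434, Fgf15 at the floor). In liver all 7 measured neutrophil markers were higher (1758 and 866), while the summed hepatocyte markers were 94698 with yogurt and 94580 in control. In jejunum all 7 measured exocrine pancreas markers were higher (39964 and 13608) and all 6 measured stomach markers lower (8836 and 12636, Atp4a at the floor), with all 6 enterocyte markers lower as well (32002 and 35970). All 8 smooth muscle markers were higher in jejunum (10544 and 9487) and in ileum (18373 and 16411). In ileum 5 of 6 measured adipocyte markers were higher (4262 and 2265, Lep at the floor), and in spleen all 7 neutrophil markers were higher (28323 and 16175). The array's 3′ to 5′ ratio of Gapdh, a measure of RNA integrity, was 0.864 with yogurt and 0.981 in control in liver, and 1.29 and 1.01 in spleen (log2). The part of these differences in the ratios of the 8 genes was not tested.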

How the data were processed

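The files held 1 value per probe set and array as log2 levels deposited by the authors; per the submitters' processing notes MAS5 and affy were used, and the sources used here do not give the scaling. The 10 arrays, 1 per diet and tissue, fell into groups by the labels. From the deposited values, probe sets were named through the platform annotation (34958 with 1 symbol, 932 with several, 9211 unnamed) and updated by gene number in RefSeq's GRCm38.p6 table (34754 matched). Values under the array's 50th percentile were raised to it. Diet ratios within a tissue have no test. The fits used limma 3.58.1 in R 4.3.3 (lmFit, eBayes with trend), with Benjamini-Hochberg adjustment over all genes, and were tested on simulated data.

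The 8 genes, the 20 lists (133 of 150 genes matched) and the alternatives were chosen with earlier results of these data known. All 8 genes are described. Of the lists, genes at least 1.5-fold changed in 3 tissues, 6 core loop genes and the 3 genes most like each member could be named. Sphk2 and Thra were added for their overlap with members, after their values were seen. The number of arrays limits the precision. Floor, probe set, scaling, moderation and tissues left out were varied.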

Additional observations from a re-analysis of the deposited data

How the results depend on the processing

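Most results kept their direction and side of the threshold under the alternatives (137 of 144 summary values moved by less than the criterion), and no diet ratio past 1.5-fold changed sign. Of 676 values of single genes, 644 stayed within the criterion. Of the 26 called tissue differences, 8 were lost under an alternative. When the floor was raised to each array's 65th percentile, members at least 1.5-fold lower numbered 0 in ileum and 1 in distal colon, and in spleen 3 members were measured, all 3 lower, with a median of −0.35. With Dbp read by its dimmer probe set, an alternative chosen after seeing the data, 1 member was at least 1.5-fold lower in jejunum and 1 in spleen, and of the 26 called tissue differences 2 reversed, both of Dbp: ileum minus distal colon to −0.50 and ileum minus liver to −0.58. With no floor, which set spleen levels below background against each other, 1 member passed the diet test, Usp2 (−0.45, limma adjusted p = 0.0317), among 14 of 18194 genes. That call was by the Usp2 probe set of highest mean level, and its other probe set was 0.34 higher with yogurt in spleen. Leaving out each tissue in turn left 0 members called in every case. Over 13 alternatives the diet terms ranged from −0.73 to −0.29 for Dbp, −0.79 to −0.31 for Ciart, −0.45 to −0.30 for Usp2, −0.36 to −0.22 for Tef and 0.00 to 0.22 for Nfil3. In the tissue comparison Dbp was called in 4 of 10 pairs by its dimmer probe set and in 7 by the brighter one. With the raised floor Nr1d1 and Ciart were called in 0 pairs, and with the mean of a gene's probe sets Tef was called in 0. Quantile normalization and averaged probe sets each left 2 members at least 1.5-fold lower in liver. The causes of these shifts were not tested. The diet fit already pairs the arrays of a tissue, and the labels give no replicate numbers for a further block. Levels near the floor, as for Ciart and Nfil3, limit what the ratios can show.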
